A study of Mus musculus with 20 samples.

Results

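The transcription factor p53, encoded by Trp53, and 9 of the genes it activates were followed in the diaphragms of mice that carried mineral or carbon fibers in the pleural cavity. The members were Trp53, Mdm2, Cdkn1a, Ccng1, Phlda3, Gdf15, Bax, Bbc3, Trp53inp1, and Sesn2, and they are 10 of the 34797 gene names on the array. All 10 passed the filter on dim probes, which kept 36930 of 55681 probes. The 20 arrays each measured RNA of 1 diaphragm from a female C57Bl/6 mouse, injected once at 8 weeks of age and sampled 12 weeks later, with 4 mice in each of 5 groups. The control mice received 100 μL of bovine serum albumin in saline alone. SFA and LFA mice received 25 μg of short or long fibers of amosite asbestos in that vehicle, and NTS and NTL mice received 5 μg of short or long carbon nanotubes. The fibers were placed directly in the pleural space, and the RNA mixed all cells of the tissue, so that in these data fewer cells of a type and less RNA per cell cannot be told apart. All 9 markers of skeletal muscle on the list used here, Acta1 and Ckm among them, were well above background on all 20 arrays.

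p53 is made continuously and destroyed about as fast, because Mdm2, itself a p53 target, tags it for degradation. DNA damage and other stresses block that loop, p53 protein accumulates, and its targets halt the cell cycle, trigger apoptosis, or limit oxidative damage. Control lies largely at the level of the protein, so that targets, rather than the Trp53 transcript, are the usual transcriptional readout of the pathway. In mesothelial tissue the pathway is of interest because loss of the p16 and p19Arf locus, which shields p53 from Mdm2, is common in mesothelioma.

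p53 binds DNA as a tetramer, and each pair of subunits contacts a half-site of 10 bases. The 250 bases upstream of the start were searched for this half-site, the standard p53 consensus, which reads the same on both strands and was allowed to overlap with itself. RefSeq (GRCm38.p6) gave 13 such windows for 9 of the members, and 5 windows, 1 each of Bax, Mdm2, Ccng1, Trp53, and Cdkn1a, held a match. Of all 32851 windows, 7.13% held one. Cdkn1a has a pair of starts 2790 bases apart. They are shown because the array files assign Cdkn1a probes to different RefSeq transcripts. No probe was shown to read the downstream start alone. The windows of Mdm2 and Ccng1 are shown beside those of Cdkn1a, as those of the feedback inhibitor and a cell cycle target. Capitals mark a half-site match, and each window runs 5′ to 3′ to the base before the start. The Cdkn1a windows lie on the plus strand at chr17:29090729-29090978 and chr17:29093519-29093768, the Mdm2 window on the minus strand at chr10:117710759-117711008, and the Ccng1 window on the minus strand at chr11:40755287-40755536.
Cdkn1a upstream start: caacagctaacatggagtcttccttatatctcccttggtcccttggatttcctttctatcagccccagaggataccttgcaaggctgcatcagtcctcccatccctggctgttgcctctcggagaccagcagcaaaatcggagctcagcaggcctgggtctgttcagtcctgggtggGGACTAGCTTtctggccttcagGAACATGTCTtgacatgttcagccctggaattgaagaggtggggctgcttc
Cdkn1a downstream start: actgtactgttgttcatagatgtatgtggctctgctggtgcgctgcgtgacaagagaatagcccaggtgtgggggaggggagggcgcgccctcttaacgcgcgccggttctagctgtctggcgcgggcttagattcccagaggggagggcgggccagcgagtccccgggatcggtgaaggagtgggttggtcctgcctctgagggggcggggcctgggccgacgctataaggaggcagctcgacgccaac
Mdm2: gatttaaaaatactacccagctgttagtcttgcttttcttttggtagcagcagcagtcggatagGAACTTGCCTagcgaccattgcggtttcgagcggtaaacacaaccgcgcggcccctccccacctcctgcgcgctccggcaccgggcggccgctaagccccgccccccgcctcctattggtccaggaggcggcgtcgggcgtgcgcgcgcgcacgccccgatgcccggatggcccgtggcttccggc
Ccng1: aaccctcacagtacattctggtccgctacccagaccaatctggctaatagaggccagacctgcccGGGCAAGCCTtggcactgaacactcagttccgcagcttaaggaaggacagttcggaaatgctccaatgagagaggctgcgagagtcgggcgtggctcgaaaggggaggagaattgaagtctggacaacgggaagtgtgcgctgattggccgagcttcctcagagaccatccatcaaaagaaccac
The upstream Cdkn1a window held 2 half-sites, at 73 to 64 and at 51 to 42 bases before the start, with 12 bases between them. Only exact matches were marked. The 10 bases that directly follow the second match differ from the consensus at their first base alone and were not counted. A pair with at most 13 bases between was present in 21 of all windows, or 0.064%. The downstream Cdkn1a window held none. A match is a string of letters and was not tested as a binding site here, and no match says only that these letters are not in this window.

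Levels are log2 signals relative to the 75th percentile of their array, which is 0 on this scale, and they compare arrays for 1 probe, not genes with each other. A gene with several probes is described by its brightest. Differences between groups come from a limma fit to all 20 arrays, with p-values adjusted by the Benjamini-Hochberg method over the 36930 probes, and a gene passed at an adjusted p under 0.05. Arrays are named by group and replicate number. The spread is between mice, and 4 mice a group limit the precision.

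Across the 10 members, 1 gene passed against control in the long fiber groups, and it was the same one. Trp53inp1 rose in LFA and in NTL, whereas 4.34% of all tested probes passed in LFA and 7.84% in NTL. It also changed at least 2-fold in both, the fold cut-off of the study, and 3.94% and 6.81% of probes met both limits. The study paired that cut-off with an analysis of variance that allows unequal variances, with Benjamini-Hochberg correction, called the methods' test below. Here it gave 1 p-value per probe over all 5 groups, not against control, adjusted over all tested probes without missing values. The study instead applied the 2-fold cut-off first and tested the probes left, so its adjusted p-values can differ. A probe passed for a group if it also changed at least 2-fold there against control. By the methods' test Trp53inp1 had an adjusted p of 0.0510, and 0 members passed in LFA or NTL. No member passed in SFA or NTS by limma, where 0% of probes passed, and 0 members were at an unadjusted p under 0.05 in either, against 2.28% and 3.49% of probes. At that unadjusted level, 5 members stood out in LFA and 5 in NTL. They were the same genes in both, with Trp53inp1, Cdkn1a, and Gdf15 higher and Ccng1 and Phlda3 lower. The background at the unadjusted level was 23.9% of probes in LFA and 23.5% in NTL, so that 5 of 10 exceeded the share of all probes in both. LFA and NTL were compared with the same control arrays, so these 2 counts are not independent. The median change of the members was 0.18 in LFA and 0.28 in NTL, against -0.28 and -0.25 for all tested probes. The negative medians of all probes depend on the scaling and were -0.08 and -0.09 after quantile normalization. Changes, intervals, and p-values of the members are relative to 0, not to these medians.

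**Figure D1:**
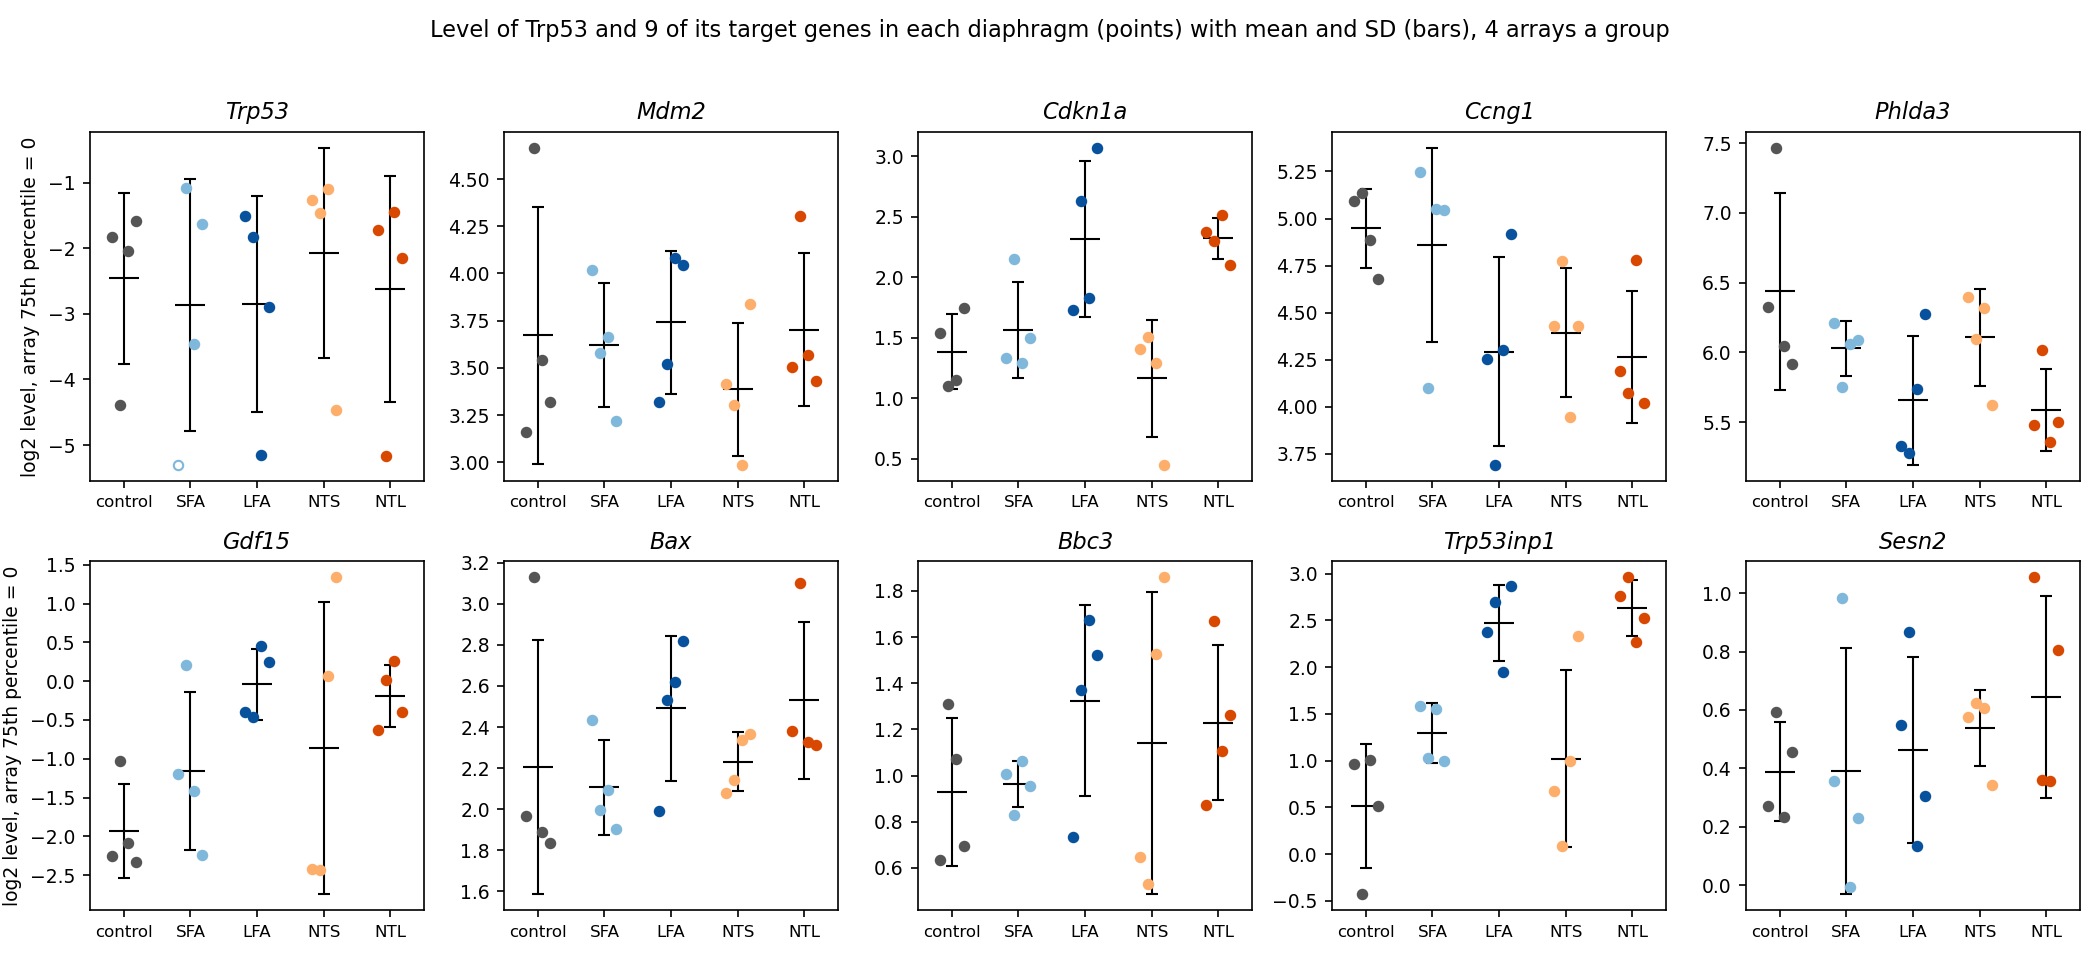
Log2 level of each member (vertical axis, array 75th percentile at 0) in every array of the 5 groups (horizontal axis). Points are single diaphragms, open where the probe was not well above background, and bars are the mean and SD of 4. Trp53inp1 separates both long fiber groups from control, from 1.95 upward against at most 1.01, whereas in Trp53 each group spreads over more than 2 units.

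Trp53inp1, a stress-induced nuclear protein that promotes p53 activity and cell death, gave the largest change of a member in the long fiber groups. Its control arrays read 0.96, -0.43, 1.01, and 0.52. LFA arrays read 2.38, 2.70, 1.95, and 2.86, and NTL arrays read 2.76, 2.96, 2.27, and 2.52. Every long fiber array lay above every control array, and control replicate 2 was the lowest of all 20. The mean rose from 0.51 ± 0.67 (SD, n = 4) in control to 2.47 ± 0.40 in LFA and 2.63 ± 0.30 in NTL. By limma the log2 change was 1.96 ± 0.40 (SE) in LFA, a 3.89-fold rise (adjusted p = 0.0131), and 2.11 ± 0.40 in NTL, a 4.33-fold rise (adjusted p = 0.00396). In both comparisons the exact two-sided permutation p was 0.0286, the smallest that 4 against 4 arrays allow. Without control replicate 2 the changes were 1.64 and 1.80 and still passed (limma adjusted p = 0.0365 and 0.0139). Within slides, the change in LFA was 1.89, 2.11, and 1.69 on the 3 slides, and that in NTL was 2.50 and 1.58 on the slides that hold both groups.

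In the short fiber groups, Trp53inp1 lay between control and the long fibers. SFA arrays read 1.58, 1.03, 1.56, and 1.0, and NTS arrays read 0.67, 0.09, 1.0, and 2.33. All SFA arrays were below all LFA arrays, and NTS replicate 4 reached into the range of NTL. The order of the means was control, NTS at 1.02, SFA at 1.29, LFA, and NTL. Control and NTS, which are neighbors in this order, differed by 0.51 ± 0.40, or by 0.07 without NTS replicate 4 and -0.24 without the 6 arrays of lowest 5′ to 3′ index described below, and did not pass by limma, and LFA and NTL by -0.16 with a 95% interval from -1.01 to 0.69. SFA and NTS, whose doses differ, were not tested against each other. LFA exceeded SFA by 1.18 ± 0.40, which did not pass (limma adjusted p = 0.230), and NTL exceeded NTS by 1.61 ± 0.40, which did (adjusted p = 0.0193). The call against NTS was lost with slide as a block (limma adjusted p = 0.0940), with only those groups in the fit (adjusted p = 0.0875), and without NTS replicate 1 or 2 or NTL replicate 1 or 2, where the difference was 1.30 to 1.56 (adjusted p from 0.0512 to 0.0728).

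A second Trp53inp1 probe also rose in LFA and NTL. The brighter probe begins at base 5041 of the transcript and lies at chr4:11101174-11101233 on the plus strand (NCBI37), whereas the other begins at base 659 and lies at chr4:11092530-11092589. The second probe changed by 1.54 ± 0.34 in LFA (limma adjusted p = 0.0191) and by 2.33 ± 0.34 in NTL (adjusted p = 0.000524). Its SFA mean of -2.66 ± 0.54 and NTS mean of -2.15 ± 0.15 were close to the control mean of -2.35 ± 0.51, and NTS replicate 4, at -2.06, did not stand out. By this probe LFA exceeded SFA by 1.85 ± 0.34 (limma adjusted p = 0.0103) and NTL exceeded NTS by 2.13 ± 0.34 (adjusted p = 0.000739). For both length comparisons, all 4 long fiber arrays were above all 4 short fiber arrays. Of the 2 probes, the second gave a length difference for asbestos that passed and the first did not.

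Cdkn1a encodes p21, the inhibitor of cyclin-dependent kinases through which p53 halts the cell cycle. Control arrays read 1.54, 1.10, 1.15, and 1.74. LFA arrays read 1.73, 2.63, 1.83, and 3.07, and NTL arrays read 2.37, 2.30, 2.51, and 2.10. All NTL arrays and 3 of the 4 LFA arrays were above every control array. The change was 0.93 ± 0.32 in LFA and 0.94 ± 0.32 in NTL, or 1.91-fold and 1.92-fold, and neither passed (limma adjusted p = 0.0926 and 0.0762). The exact permutation p was 0.0571 in LFA and 0.0286 in NTL, two-sided. In the short fiber groups the mean was 1.57 ± 0.40 in SFA and 1.16 ± 0.49 in NTS, against 1.38 ± 0.31 in control, and neither passed. The mean of LFA was 2.31 ± 0.64 and that of NTL 2.32 ± 0.17.

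Against the short nanotubes, Cdkn1a was higher in all 4 NTL arrays, with NTS at 1.40, 1.51, 1.29, and 0.45. The difference was 1.16 ± 0.32, or 2.23-fold, and passed by limma (adjusted p = 0.0291). LFA exceeded SFA by 0.75 ± 0.32 (limma adjusted p = 0.337), with SFA arrays at 1.33, 2.15, 1.29, and 1.50. NTS replicate 4 was the lowest array, and without it the difference of NTL from NTS was 0.92 (limma adjusted p = 0.0508). The call was also lost without NTS replicate 3 or any 1 of the NTL replicates (limma adjusted p from 0.0518 to 0.0708), with only those groups in the fit (adjusted p = 0.0618), with slide as a block (adjusted p = 0.132), and without the 6 arrays of lowest 5′ to 3′ index (0.93, adjusted p = 0.0598). Against control, Cdkn1a passed after normexp background correction in LFA and NTL (limma adjusted p = 0.0488 and 0.0394), and with an added term for the 5′ to 3′ balance of each array, described below, in LFA (1.10, adjusted p = 0.0294) and in NTL (1.04, adjusted p = 0.0210). Without NTS replicate 4 it passed in NTL (limma adjusted p = 0.0474).

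The Cdkn1a probe is printed in 10 spots on each array, at chr17:29237377-29237436 (NCBI37, plus strand), and the SD of these spots within an array had a median of 0.045 and a maximum of 0.17. A probe that the array files assign to another RefSeq transcript of Cdkn1a begins at base 55 of it, at chr17:29227986-29228045, and was well above background on 19 of 20 arrays. It changed by 1.31 ± 0.50 in LFA and 1.50 ± 0.50 in NTL (limma adjusted p = 0.132 and 0.0753). Its arrays read -3.61, -4.11, -3.81, and -3.63 in control, and -1.79, -2.74, -2.43, and -2.19 in NTL, so that these groups did not overlap. In LFA it read -2.62, -1.85, -3.79, and -1.67, with replicate 3 inside the control range. Its distance from the first probe places it near the upstream start, whose window, printed above, held the pair of half-sites. One more Cdkn1a probe was well above background on 5 arrays, 3 of them NTL, and none of its differences from control passed.

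**Figure D2:**
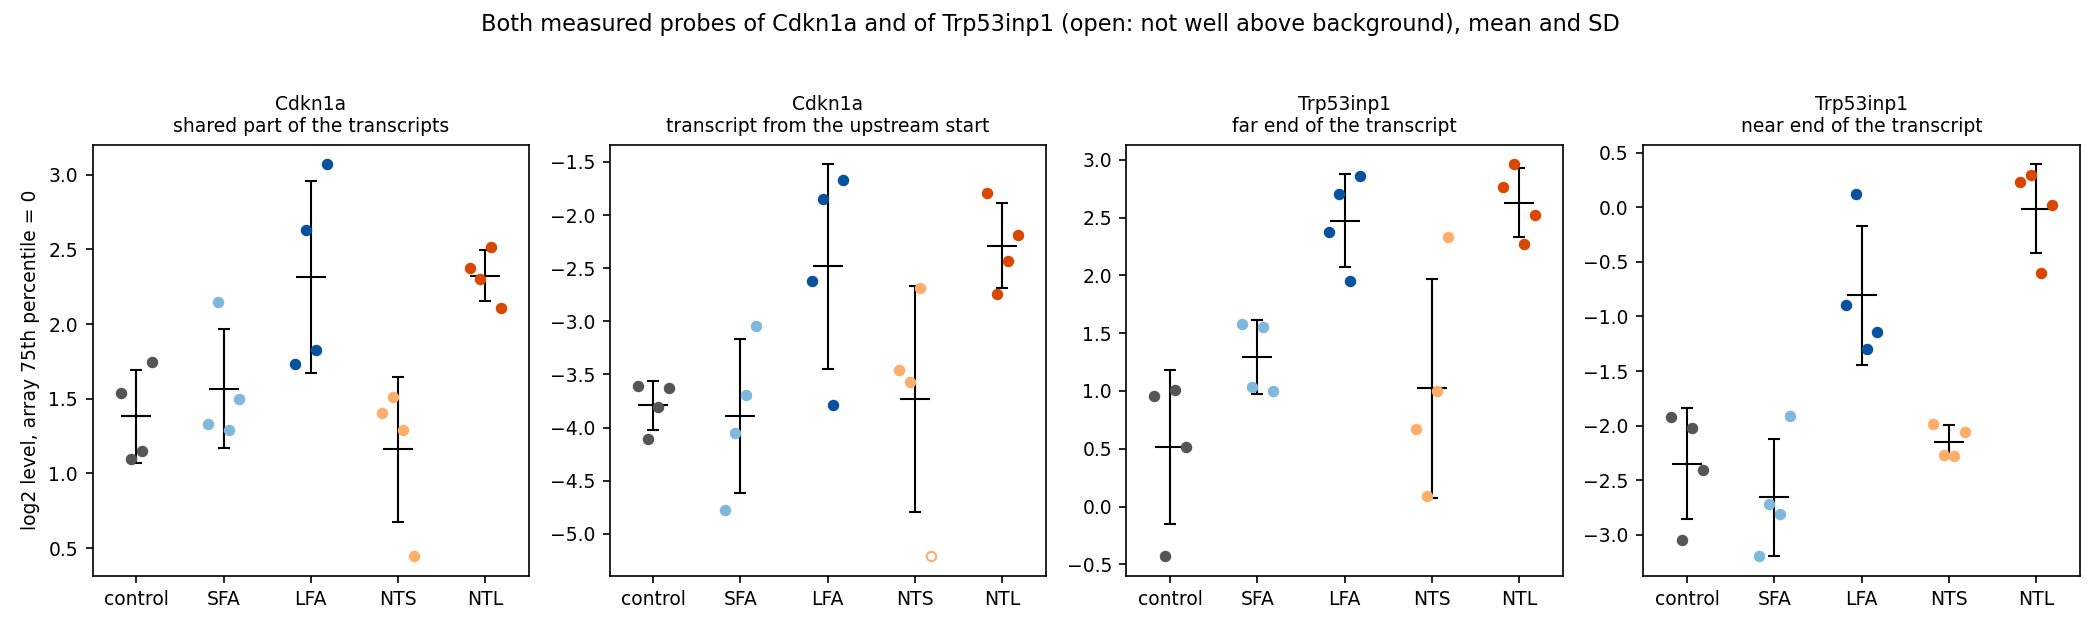
Log2 level (vertical axis, array 75th percentile at 0) of a pair of probes each for Cdkn1a and Trp53inp1 in the 5 groups, with points for single arrays, open where not well above background, and bars for the mean and SD of 4. Both Trp53inp1 probes set LFA and NTL above control, and SFA lies at 1.29 by the first probe and at -2.66, below the control mean, by the second.

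Gdf15, a secreted stress cytokine of the TGF-β family, had the widest spread among the targets that moved. Control arrays read -2.26, -1.03, -2.09, and -2.33. LFA arrays read -0.40, -0.47, 0.45, and 0.24, and NTL arrays read -0.62, 0.01, 0.26, and -0.40. No long fiber array overlapped the controls. The change was 1.89 ± 0.68 in LFA and 1.74 ± 0.68 in NTL, or 3.70-fold and 3.35-fold, and did not pass (limma adjusted p = 0.110 and 0.127). Groups without overlap, with the fiber group higher, occurred for 2 members in LFA and 3 in NTL, against 4.6% and 6.34% of all probes. Trp53inp1 and Gdf15 were the members in LFA, and Cdkn1a joined them in NTL.

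Gdf15 spread most in the short fiber groups. SFA arrays read -1.19, 0.21, -1.41, and -2.24, and NTS arrays read -2.42, -2.44, 0.06, and 1.34. SFA replicate 2 and NTS replicates 3 and 4 reached or exceeded the long fiber arrays. Liver transcripts, Alb, Apoa1, and Ttr among the 7 markers, also varied widely between mice of a group. A marker score, the mean log2 level of a list relative to its control mean, was 6.69 for liver in SFA replicate 2 and 8.19 and 7.94 in NTS replicates 3 and 4. It was also high, at 6.69 and 7.18, in LFA replicates 1 and 3. In LFA replicates 2 and 4, where Gdf15 read -0.47 and 0.24, the liver score was -2.24 and -2.16, and in control it ranged from -1.91 to 4.12. The part of liver RNA in these levels was not tested further than by adding the liver score to the fit, where the change of Gdf15 was 1.53 in LFA and 1.36 in NTL. With only the groups compared in the fit Gdf15 passed in both (limma adjusted p = 0.0475 and 0.0255), and without NTS replicate 4 it passed in LFA (adjusted p = 0.0416).

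Lower levels with long fibers, which did not pass, were found for Phlda3 and Ccng1. The median of all tested probes was also below 0, at -0.28 in LFA and -0.25 in NTL. Phlda3, a target that blocks Akt at the membrane, differed from control by -0.78 ± 0.32 in LFA and -0.85 ± 0.32 in NTL (limma adjusted p = 0.151 and 0.111). Its means were 6.44 ± 0.71 in control, 6.03 in SFA, 5.66 in LFA, 6.11 in NTS, and 5.59 in NTL, and control replicate 2 was the highest of all arrays at 7.47. Without control replicate 2 the changes were -0.44 and -0.51. Ccng1, which encodes cyclin G1, a partner of phosphatase 2A that acts on Mdm2, changed by -0.66 ± 0.30 in LFA and -0.68 ± 0.30 in NTL (limma adjusted p = 0.192 and 0.174). Its NTS change was of like size, at -0.55, and its means ran from 4.27 in NTL to 4.95 in control. After quantile normalization the NTL differences were -0.38 for Phlda3 and -0.29 for Ccng1, and with the 5′ to 3′ index in the fit Phlda3 passed in NTL (-0.92, limma adjusted p = 0.0461). Without the 6 arrays of lowest index, Phlda3 passed as lower in NTL than in NTS (-0.83, limma adjusted p = 0.0459).

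The remaining targets had changes with intervals on both sides of 0. Bax, which permeabilizes mitochondria in apoptosis, changed by 0.29 in LFA and 0.33 in NTL, with 95% intervals from -0.32 to 0.89 and from -0.28 to 0.93. Bbc3, which encodes the apoptotic trigger Puma, changed by 0.40 in LFA and 0.30 in NTL (intervals from -0.24 to 1.03 and from -0.33 to 0.93). Sesn2, an antioxidant inhibitor of mTORC1, changed by 0.07 and 0.26 (intervals from -0.44 to 0.59 and from -0.26 to 0.77). Mdm2, the inhibitor of p53, changed by 0.07 and 0.03 (intervals from -0.61 to 0.75 and from -0.65 to 0.71). For these 4 genes a rise of the size seen for Trp53inp1 in LFA, 1.96, lies outside every interval.

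**Figure D3:**
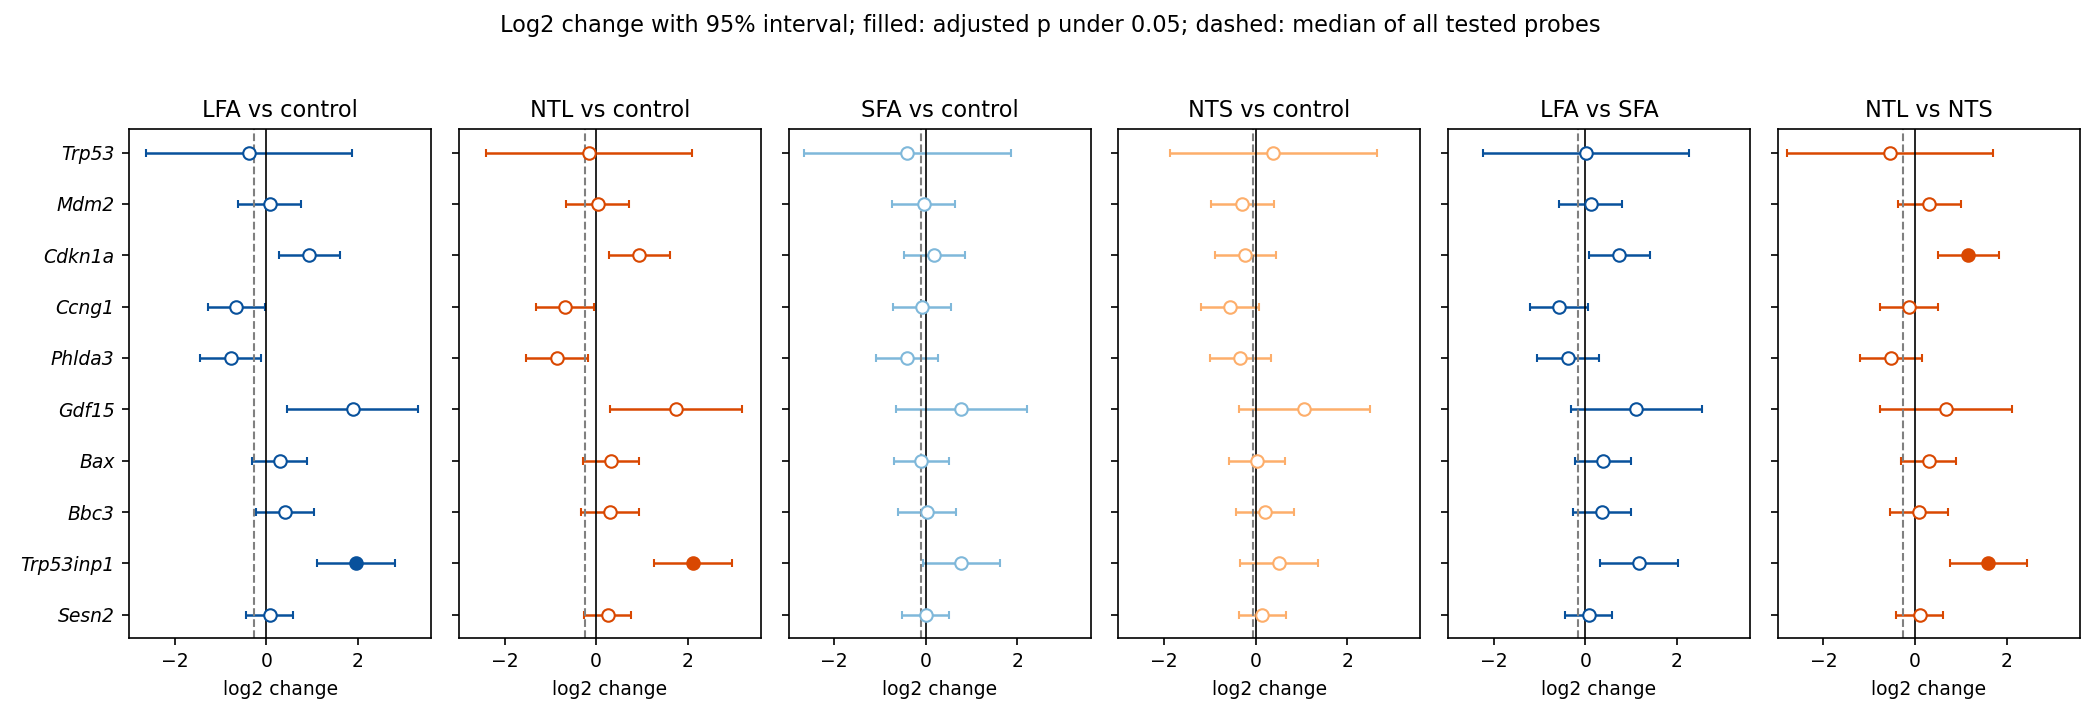
Log2 change of each member (rows) in 6 comparisons (panels; horizontal axis in log2 units), with the 95% interval of the limma fit. Filled points passed at an adjusted p under 0.05, and the dashed line is the median of all tested probes. Trp53inp1 is filled against control at 1.96 in LFA and 2.11 in NTL, and Cdkn1a only in the comparison of NTL with NTS, at 1.16.

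Between fiber lengths, by the brightest probes, 0 members passed in LFA against SFA and 2 in NTL against NTS, Trp53inp1 and Cdkn1a. Of all probes, 1.16% and 8.78% passed. The second Trp53inp1 probe did pass in LFA against SFA, at 1.85 (limma adjusted p = 0.0103). The Cdkn1a probe near the upstream start did not pass in NTL against NTS, at 1.44 (limma adjusted p = 0.0825). Nor did it pass in LFA against SFA, at 1.41 (limma adjusted p = 0.256). At an unadjusted p under 0.05, 2 members by their brightest probes were found in each comparison, again Trp53inp1 and Cdkn1a, against 12.5% and 25.1% of probes. The difference of the asbestos and nanotube length effects was fitted for all 10 members, and 0 members and 0% of probes passed by limma, with the smallest unadjusted p of a member at 0.310. This difference was -0.43 for Trp53inp1, with a 95% interval from -1.63 to 0.78, and -0.41 for Cdkn1a, from -1.35 to 0.53. LFA against NTL, which also differ in mass dose, gave 0 members that passed by limma and 0 at an unadjusted p under 0.05, where 0% and 1.55% of all probes were. By its second probe, the difference of LFA from NTL for Trp53inp1 was -0.79, with a 95% interval from -1.51 to -0.07 and a limma unadjusted p of 0.0330 that did not pass the adjustment.

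Trp53 itself was dominated by differences between arrays of the same group. Control arrays read -1.82, -4.39, -2.05, and -1.58, LFA arrays read -1.51, -1.83, -5.15, and -2.90, and NTL arrays read -1.72, -5.16, -1.46, and -2.15. SFA arrays read -5.30, -1.08, -3.45, and -1.63, and NTS arrays read -1.26, -1.47, -1.10, and -4.47. In each group the lowest array lay more than 2 units below the highest, and all groups overlapped. The change was -0.39 ± 1.07 in LFA and -0.16 ± 1.07 in NTL, with 95% intervals from -2.64 to 1.87 and from -2.42 to 2.10, so that even a 2-fold change in either direction was not detectable. Within slides the LFA difference was -2.44, 1.60, and 0.22. The probe lies at chr11:69404204-69404263 (NCBI37, plus strand), begins at base 1187 of the transcript, and is printed in 2 spots. The spots differed by 2.69 log2 units in control replicate 2, the largest gap of any array.

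The low Trp53 arrays were also those whose RNA read low toward the 5′ end of transcripts. For 1157 transcripts with probes at least 1000 bases apart, the mean difference between the 5′ and the 3′ probe was taken as an index of each array, centered at 0. The index ran from -0.56 in SFA replicate 1 to 0.47 in NTS replicate 3, and its group means from -0.16 in LFA to 0.22 in NTS overlapped within their SDs of 0.25 to 0.39. The 6 arrays with the lowest index, SFA replicates 1 and 3, LFA replicate 3, NTL replicate 2, NTS replicate 4, and control replicate 2, were the 6 with the lowest Trp53 level. Without them Trp53 changed by -0.26 ± 0.34 in LFA and 0.04 ± 0.34 in NTL. Leaving them out also takes away the lowest Trp53 values and leaves fewer arrays in every group. The smaller SE follows from that and is not a gain in precision. In all 5 groups the array of lowest index was the lowest of its group for Trp53, as it was for 10% of all tested probes.

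Mdm2 showed the mirror image. In all 5 groups its highest array was the one of lowest index, as for 10.4% of all tested probes, and 5 of the 6 arrays of lowest index were among its 6 highest. Its levels ran from 2.99 in NTS replicate 3, the array of highest index, to 4.67 in control replicate 2. Bax and Bbc3 were highest in the array of lowest index in 4 of the 5 groups. Mdm2 and Trp53 thus move apart between arrays of 1 group, while neither passed between groups. With the index in the fit, Mdm2 changed by -0.27 in LFA and -0.16 in NTL and Trp53 by 0.88 and 0.55, and none passed (limma adjusted p from 0.287 to 0.593). Trp53inp1 kept changes of 1.83 and 2.04 and passed in both (adjusted p = 0.0153 and 0.00332).

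**Figure D4:**
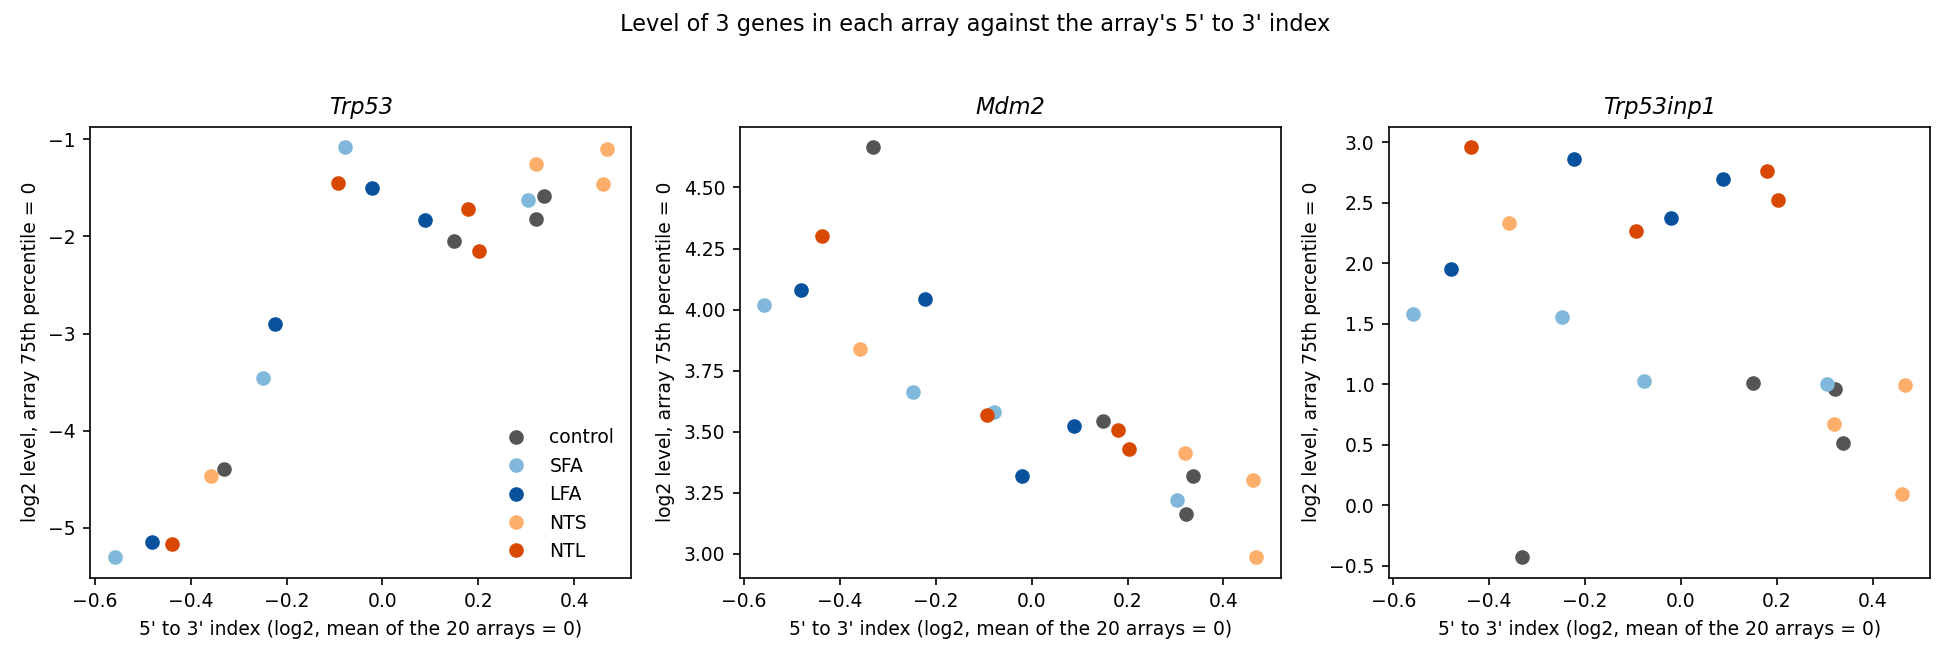
Log2 level of Trp53, Mdm2, and Trp53inp1 (vertical axes, array 75th percentile at 0) against the 5′ to 3′ index of the array (horizontal axis, log2 units, mean of 20 arrays at 0). Points are arrays, colored by group. The arrays of lowest index have the lowest Trp53, down to -5.30, and high Mdm2, up to 4.67, in each of the 5 groups, whereas the LFA and NTL arrays lie at 1.95 or higher for Trp53inp1 at any index.

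By a fixed rule, the genes most like a member were the 5 with the highest Pearson r over the 20 arrays, among 17426 genes. For Cdkn1a these were Wnt10a, Btbd17, Fxyd5, Tes, and Gpm6b, with r from 0.88 to 0.89, and r within groups from 0.63 to 0.82. For Trp53 they were Ppp1r35, Rassf3, Plekhj1, Rnf126, and Gm9079, with r from 0.97 to 0.98 both over all arrays and within groups. The arrays of a pair share 1 RNA sample each and its 5′ to 3′ balance, and these r are descriptions.

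Of 67 further genes of the pathway, 66 could be tested, all but Cdc25c. The lists were chosen with earlier results of these data known, so that their counts beside all probes are descriptions. In LFA 11 rose and 0 fell, and in NTL 14 rose and 0 fell, whereas 2.28% and 3.8% of all probes rose and 2.06% and 4.03% fell. The 66 genes include regulators, targets, and genes held down through p21, so that a rise does not mean the same for all. Genes held down through p21 made up 6 of those that rose in LFA and 6 in NTL. In SFA and NTS 0 genes passed by limma, with 7 and 4 of the 66 at an unadjusted p under 0.05, against 2.28% and 3.49% of all probes. The median change over the 66 genes was 0.34 in LFA and 0.30 in NTL. The count in LFA, with the share of all probes that passed, was 3 (1.26%) without LFA replicate 2, 4 (1.78%) without control replicate 1, 6 (1.7%) without LFA replicate 4, and 2 (1.59%) when only the LFA and control arrays were fitted.

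Among the 18 relatives and regulators of p53, none fell in LFA or NTL. In both, 1 gene rose, against 2.28% and 3.8% of all probes. It was Cdkn2a, whose locus encodes the cell cycle inhibitor p16 and p19Arf, the antagonist of Mdm2. It rose by 2.75 ± 0.45 in LFA and 2.66 ± 0.45 in NTL (limma adjusted p = 0.00276 and 0.00167), from a control mean of -1.83 to 0.92 and 0.83. Mdm4, the partner of Mdm2, changed by 0.08 and 0.28, and Ppm1d, the phosphatase that resets the damage response, by 0.12 and -0.04. Neither passed. The median of the list was -0.18 in LFA and 0.00 in NTL, against -0.28 and -0.25 for all probes.

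Of 12 targets that act on the cell cycle and growth, 3 rose in LFA and 6 in NTL. Among all probes, 2.28% and 3.8% rose. Thbs1, which encodes the matrix protein thrombospondin 1, rose from 0.09 ± 1.02 in control to 2.63 ± 1.24 in LFA and 2.68 ± 0.45 in NTL, changes of 2.54 and 2.59 (limma adjusted p = 0.0167 and 0.00809). Rprm, the G2 arrest gene Reprimo, and Ptprv were each well above background on 1 control array. Both passed in LFA and NTL, Rprm with limma adjusted p = 0.0196 and 0.00102 and Ptprv with adjusted p = 0.0382 and 0.0167, but the control level was mostly unmeasured and no size is given. Ptprv was well above background on 3 LFA and 4 NTL arrays, and Rprm on all 4 of each. Gtse1, a microtubule protein that restrains p53 in G2, was not well above background on any control array but was on all 4 NTL arrays, where it was at least 3.06-fold higher (adjusted p = 0.00171). For a probe that no array of a group detects, the bound sets the mean of the bright group against the lowest signal that counts as well above background. Plk2 and Zmat3, the other genes of the list that passed in NTL, changed by 0.97 and 0.94.

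Of 13 apoptosis targets, Pmaip1 alone rose, in LFA and in NTL, where 2.28% and 3.8% of all probes rose. Pmaip1 encodes Noxa, which like Puma is a BH3-only trigger of apoptosis. Its mean rose from -2.17 ± 0.51 in control to -0.42 ± 0.70 in LFA and -0.19 ± 0.18 in NTL, by 1.75 and 1.98 (limma adjusted p = 0.0135 and 0.00295), and its arrays did not overlap with control. The list median was 0.58 in LFA and 0.52 in NTL. Of 14 targets in DNA repair and metabolism, 0 passed in LFA or NTL by limma, with 2 and 5 at an unadjusted p under 0.05, against 23.9% and 23.5% of all probes. Their medians were -0.10 and -0.05.

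The last list held genes kept down through p21 and the DREAM complex, a repressor that p21 keeps assembled on cell cycle promoters. Of 9 tested, 6 rose in LFA and 6 in NTL, against 2.28% and 3.8% of all probes. Of these 9 genes 0 fell, and the median was 1.49 and 1.70. Ccnb1 and Ccna2, which encode mitotic and S phase cyclins, rose by 2.01 and 1.71 in LFA (limma adjusted p = 0.0149 and 0.0105) and by 1.99 and 1.70 in NTL (adjusted p = 0.00866 and 0.00568). Cdk1, the mitotic kinase, rose by 1.40 in LFA and 1.92 in NTL, and Plk1, which drives mitotic entry, by 1.49 and 1.75. Birc5 and Ccnb2 were the other 2. These genes rose in the same groups as Trp53inp1. Cdkn1a was also higher there, by 0.93 in LFA and 0.94 in NTL, with every NTL array above every control array, but did not pass. Why these genes rose, and whether p21 had a part in it, was not tested.

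**Figure D5:**
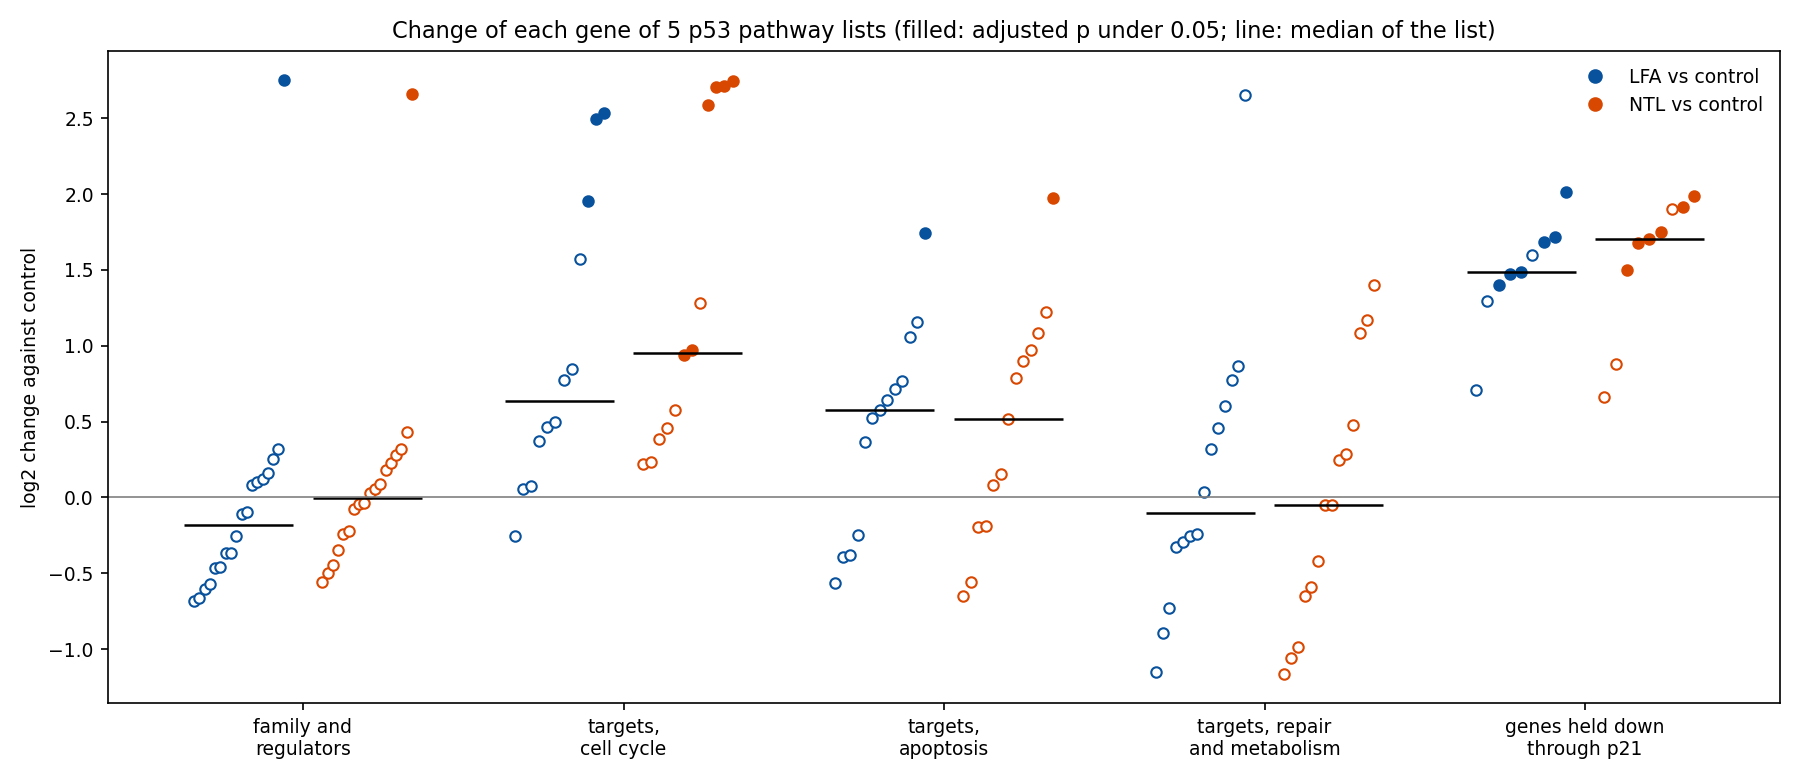
Log2 change against control (vertical axis) of each tested gene of 5 pathway lists (horizontal axis) in LFA and NTL. Filled points passed at an adjusted p under 0.05, and lines are list medians. The filled points are all above 0, and the list of genes held down through p21 has the highest medians, 1.49 and 1.70.

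Between lengths, 20 of the 66 genes were higher and 1 was lower in NTL than in NTS, where 5.22% and 3.56% of all probes were, and 1 was higher in LFA than in SFA, where 1.03% were. The single gene in LFA was Cdkn2a. The one lower in NTL was Sco2, a copper chaperone of cytochrome c oxidase, at -1.77 (limma adjusted p = 0.00238).

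Markers of some other cells moved with these results. The macrophage score, over 9 markers that were all well above background on every array, lay between -0.12 and 0.17 in control, 0.03 and 0.48 in SFA, -0.28 and 0.20 in NTS, 1.06 and 2.46 in LFA, and 2.06 and 2.77 in NTL. Of these markers 6 rose in LFA and 7 in NTL, against 2.28% and 3.8% of all probes. The skeletal muscle score was between -1.31 and -0.67 in LFA and between -1.44 and -1.27 in NTL, against -0.19 to 0.28 in control. In each, 5 of 9 muscle markers fell, against 2.06% and 4.03% of all probes. The mesothelial score lay between -0.65 and 0.65 in LFA arrays and between -0.57 and -0.22 in NTL arrays, with 0 of 7 markers passing against control by limma. The score of fibroblast and matrix genes was 0.79 ± 0.50 in LFA and 1.10 ± 0.30 in NTL. Of its 5 markers, 1 rose in LFA and 4 in NTL. The B and plasma cell score was 1.26 ± 0.36 and 1.33 ± 0.31. Only 1 of its 5 markers rose in each, and their median change was 0.54 and 0.99. The T cell score was 0.28 ± 0.59 and 0.82 ± 0.58, with 0 of 5 markers passing. The adipocyte score was -0.73 ± 0.59 and -1.02 ± 0.31, and 1 and 2 of its 5 markers fell. The part of these cells in the changes of Trp53inp1, Cdkn1a, and the pathway lists was not tested.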

How the data were processed

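RNA of the 20 diaphragms was labeled with a single dye by the authors and hybridized to Agilent 60K mouse arrays. The deposited files hold, per spot, a background-subtracted intensity from Agilent Feature Extraction 10.7.3.1, per the file headers. The authors also deposited a table of normalized log2 values with 1 value per group, which cannot be tested. Outlier spots (92 to 204 per array) were dropped, log2 intensities were set relative to the 75th percentile of the array (294 to 996), and spots of a probe were averaged. Between 53.0% and 68.1% of spots were well above background, and a probe had to be so on at least 4 arrays. Arrays correlated at 0.909 to 0.984, so that none was a copy.

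limma 3.58.1 in R 4.3.3 fitted a mean per group to all arrays, after testing on simulated data. Python 3.11.15 and matplotlib 3.10.9 were used for reading and figures. The alternatives were normexp background correction (offset 50), quantile normalization, other filters, the mean over probes, slide or replicate number as a block, fewer samples, and the methods' test. Fits with the 5′ to 3′ index, with the liver score, or without the 6 arrays of lowest index were added once the data had been seen. Slides 1 to 3 coincide with the 3 scans, and no NTL array was on slide 1, no NTS array on slide 3, and no SFA array on slide 1. Gene symbols and probe positions (NCBI37) are those of the files, promoters those of RefSeq (GRCm38.p6), and the exon or UTR that a probe falls in was not analysed here. Members and lists were chosen with earlier results of these data known. Of the lists, up to 4 genes with the smallest p among those that passed were named, with Cdkn2a, Mdm4, and Ppm1d always; Plk2, Zmat3, Birc5, Ccnb2, and Sco2 were named after their values were seen.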

Additional observations from a re-analysis of the deposited data

Results flagged for a closer look

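In each group, the members and the 5′ to 3′ index were examined for a single distant value. Of these 55 sets of 4 arrays, 5 had one (9.09%), where about 1 in 20 is the rate of chance flags. All 5 were sets of members. For Trp53, NTS replicate 4 read -4.47 against -1.47 to -1.10 in the other NTS arrays, and control replicate 2 read -4.39 against -2.05 to -1.58. For Mdm2, NTL replicate 2 read 4.30 against 3.43 to 3.57. For Bax, NTL replicate 2 read 3.10 against 2.31 to 2.38, and control replicate 2 read 3.13 against 1.84 to 1.96. All 3 arrays are among the 6 with the lowest 5′ to 3′ index.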

How the results depend on the processing

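No call changed direction. Among members that did not pass, Mdm2 had the other sign in 5 of 31 alternatives in LFA and in NTL, and Trp53 in 2 and 5 of 30. The number of members that passed against control was 2 for LFA and for NTL with normexp background correction and with only the groups compared in the fit, 2 for LFA and 3 for NTL with the 5′ to 3′ index in the fit, 2 for NTL with the liver score in the fit, and 0 for both by the methods' test, in which Trp53inp1 had an adjusted p of 0.0510. For LFA against SFA it was 1 with the mean over the probes of a gene and 1 without the 6 arrays of lowest index. For NTL against NTS it was 0 with slide as a block and 0 with only the groups compared. Leaving out 1 array at a time gave 1 to 2 for LFA and for NTL against control, highest without NTS replicate 4, and 0 to 2 for NTL against NTS, with 0 without NTL replicate 1 or NTL replicate 2. Trp53inp1 passed against control without any single array (limma adjusted p up to 0.0477 in LFA and 0.0162 in NTL). The pathway genes that passed numbered 2 for LFA with only the groups compared, 16 with the index in the fit (10.1% of all probes), and 3 to 14 leaving out 1 array at a time (467 to 3241 probes in all), 10 to 20 for NTL over all alternatives, 9, 8, 0, and 1 for LFA, NTL, SFA, and NTS by the methods' test (935, 1051, 82, and 91 probes in all), 12 for NTL against NTS with slide as a block, and, for LFA against SFA, 2 with quantile normalization, 3 with the index in the fit, and 1 to 2 leaving out 1 array at a time. The methods' test has 1 p-value per probe over all 5 groups, which can be small through the long fiber groups alone. Its counts for SFA and NTS are therefore not tests against control, where 0 probes passed by limma in the main fit. The replicate numbers did not pair the arrays (mean correlation of same-numbered deviations -0.033), and with the replicate block the members that passed stayed at 1, 1, and 2 in number for LFA, NTL, and NTL against NTS. The authors' table holds group values alone and was not fitted; it gave changes of 2.0 and 2.14 for Trp53inp1 in LFA and NTL. The cause of these differences was not tested. Dim probes, such as the third Cdkn1a probe, are limited by signal over background.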
